A study of Chlamydomonas reinhardtii with 18 samples.

Results

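The comparison covers the first hours after nitrite reached dark cultures of the green alga Chlamydomonas reinhardtii. It sets the 3 libraries labelled nitrite 3 h against the 3 labelled nitrite 15 min, which are 6 of the 18 libraries of the study. All cells were strain 6145c, kept in darkness at 25 °C over the times sampled. Time in darkness therefore ran on together with time since the addition. Nitrite was added at 10 mM to 3 flasks, 3 control flasks received none, and both arms were sampled at 15 min, 3 h and 24 h. Polyadenylated RNA was made into stranded libraries. No library was taken before the addition, so the 15 min samples are the starting point of every change given here. The labels do not tie a replicate number to a flask, and 1 strain in 1 set of cultures limits how far the values reach.

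Nitrite is an intermediate of nitrate assimilation. Chlamydomonas reduces it in the chloroplast to ammonium, which enters glutamine and glutamate, and it can also turn nitrite into nitric oxide. In the dark the alga lives on respiration, and when oxygen becomes scarce it ferments and makes hydrogen with chloroplast hydrogenases. The gene identifiers of the tables come without names, and the reference table used here gives locus tags only. Genes are therefore described by identifier, and functions are given for whole lists of identifiers. Their assignment comes from prior knowledge and could not be checked in these files. The lists were chosen with earlier results of these data known. Shares of called members therefore describe the lists and do not test them.

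The libraries numbered 2 of both nitrite times went against their labels and are described first. On the second principal component, which held 12.5% of the variance, nitrite 15 min numbers 1 and 3 lay at 43.4 and 42.5 and nitrite 3 h number 2 at 46.2. Nitrite 3 h numbers 1 and 3 lay at -13.4 and -15.6, and nitrite 15 min number 2 at -12.4. Over all genes, the chi-square per degree of freedom between 15 min numbers 1 and 3 was 4.02, the smallest of the 15 pairs of libraries. Number 2 at 15 min reached 32.8 against number 1 and 35.2 against number 3 of its own time, but 6.43 and 5.28 against numbers 1 and 3 of 3 h. Number 2 at 3 h reached 22.8 and 32.8 against its own time and 5.48 and 5.37 against numbers 1 and 3 of 15 min. Per-gene changes from 15 min to 3 h correlated at r = 0.69 between numbers 1 and 3, and at -0.74 and -0.75 between number 2 and each of them, across 13564 genes that are not independent replicates. The labels were kept as deposited, and the cause was not tested. Counts over all genes are given with all libraries and without number 2 at both times. Values of lists and single genes are those without number 2 unless stated otherwise. With all libraries no gene passed, so every rise or fall called below holds only without number 2.

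**Figure D1:**
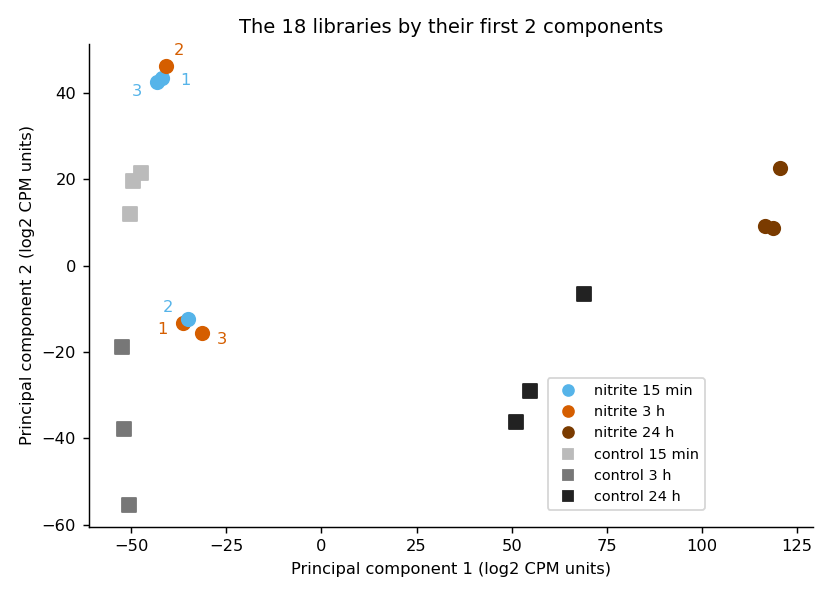
The first 2 principal components of log2 CPM (reads scaled to a common library size) are plotted for the 18 libraries, with circles for nitrite, squares for control, and replicate numbers beside the 6 nitrite libraries of 15 min and 3 h. Nitrite 15 min number 2, at -12.4 on the second component, sits beside 3 h numbers 1 and 3, and nitrite 3 h number 2, at 46.2, sits beside 15 min numbers 1 and 3.

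Depth was alike in the 6 libraries, at 7666924 to 8469882 reads in genes, with 16.7% to 21.1% of reads aligned more than once. Among the control libraries used for comparison, 3 h number 3 stood apart, with 36.5% of reads aligned more than once. Its mitochondrial mRNAs were at 879 CPM, against 187 to 247 CPM in the 6 nitrite libraries. In the other control libraries of 15 min and 3 h they were at 179 to 460 CPM.

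With all 6 libraries, none of 13564 tested genes differed between 15 min and 3 h at an adjusted p under 0.05 (edgeR quasi-likelihood test, 0% called). DESeq2 and limma voom also called 0. At an unadjusted p under 0.05, edgeR gave 197 genes, or 1.45%. Without number 2 at both times, which leaves 2 libraries a time, 2446 of 13714 genes (17.8%) passed the same test. Of these, 1111 (8.1%) rose and 1335 (9.73%) fell. In cultures measured in bulk, fewer cells of a type and less RNA per cell cannot be told apart. The median rise was 2.18-fold and the median fall 1.94-fold, while the median log2 fold change over all tested genes was 0.01. At least 4-fold changes made up 108 of the rises and 77 of the falls. For called genes that were also tested with all libraries, the median log2 fold change shrank to 0.40 for rises and -0.35 for falls. The count of 2446 fell to between 823 and 1248 when any 1 of the 4 libraries was also left out, and to 422 with no scaling beyond library totals. Without that scaling 30.1% of the calls were rises, against 45.4% here.

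The fit that called these genes did not use the number 2 libraries. They were left out, however, with their opposite change over all tested genes already known. Their values in the called genes therefore describe how far that pattern went and are not independent support. From 15 min to 3 h, number 2 moved the opposite way in 1093 of the 1111 genes that rose and in 1326 of the 1335 that fell. Its median log2 change was -0.90 in the genes that rose, where numbers 1 and 3 averaged 1.07, and 0.85 in the genes that fell, where they averaged -0.93. Among the 11268 uncalled genes, number 2 moved the opposite way in 77.3%.

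**Figure D2:**
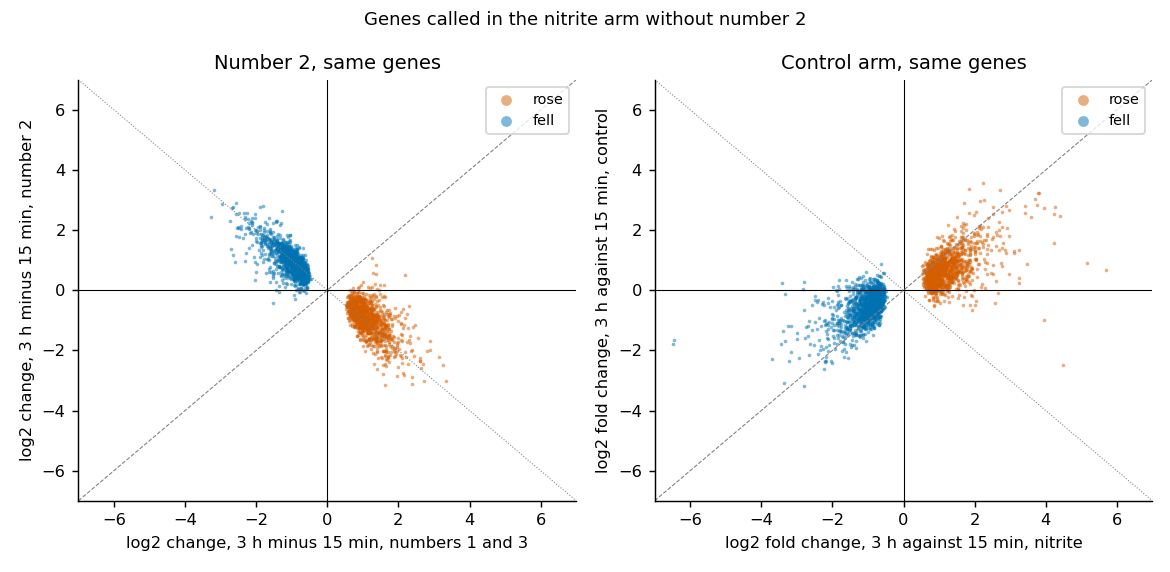
Each point is 1 of the 2446 genes that passed the test without number 2. The left panel sets the log2 change of number 2 against that of numbers 1 and 3, and the right panel sets the log2 fold change of the control arm against that of the nitrite arm, with dashed lines for equal and dotted lines for opposite change. Number 2 lies in the opposite quadrants for 98.4% of rises and 99.3% of falls, and the control arm lies on the same side for 94.2% of rises and 89.2% of falls.

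The hydrogenase and fermentation list was entered for the hydrogenases, their maturation factors and enzymes of pyruvate fermentation. Without number 2, 7 of its 7 tested members fell, against 9.73% of all tested genes, and their median log2 fold change was -1.43. With all libraries none passed, and the median was -0.41. Cre01.g044800 stood at 1070 and 1050 CPM in 15 min numbers 1 and 3 and at 339 and 379 CPM in 3 h numbers 1 and 3. Its number 2 libraries read 328 CPM at 15 min and 993 CPM at 3 h. Its 3 labelled libraries a time therefore overlapped, while numbers 1 and 3 alone were well apart. The log2 fold change was -1.56 ± 0.25 (SE), with an edgeR adjusted p of 0.000182 without number 2 and of 1 with it.

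Cre06.g296700 and Cre06.g296750, near neighbours on chromosome 6, fell alongside. Cre06.g296700 went from 253 and 286 CPM to 96.2 and 104 CPM in numbers 1 and 3, and from 82.7 to 266 CPM in number 2. Cre06.g296750 went from 75.8 and 81.6 CPM to 31.2 and 34.2 CPM, and from 33.9 to 80.7 CPM in number 2. The log2 fold changes were -1.43 ± 0.22 for Cre06.g296700 and -1.27 ± 0.23 for Cre06.g296750. Cre03.g199800 read 378 CPM in both 15 min libraries and 160 and 188 CPM at 3 h, with number 2 at 160 and then 355 CPM, and its log2 fold change was -1.12 ± 0.20. Cre09.g396600 changed by -1.09 ± 0.29, Cre17.g746997 by -1.49 ± 0.38 and Cre03.g165700, which rested on 37 and 5 reads, by -2.68 ± 0.65. In all 7 members number 2 moved upward. Leaving out any 1 of the 4 libraries kept 4 to 6 of the 7 calls, and 4 were kept with no scaling. In the control arm 6 of the 7 fell as well, against 6.83% of all tested genes in that arm, with a median of -1.17. The difference between arms did not pass for any member (lowest edgeR adjusted p 0.503).

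**Figure D3:**
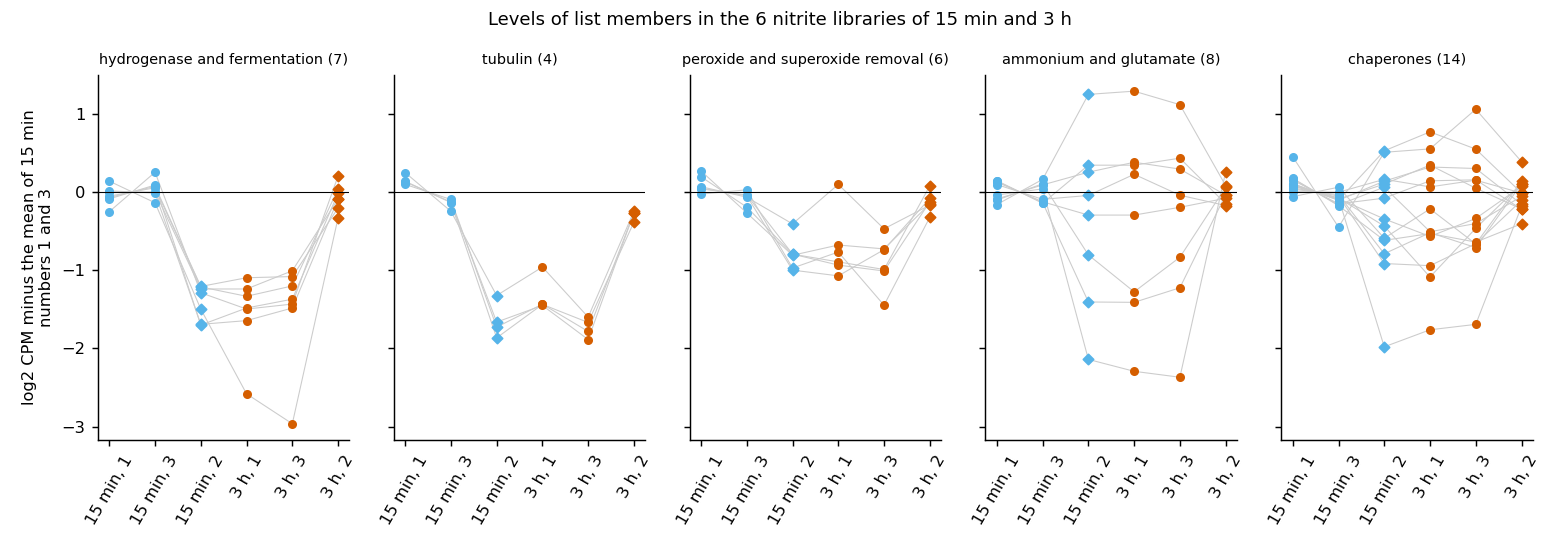
Levels of tested members of 5 lists in the 6 nitrite libraries are shown as log2 CPM minus the mean of 15 min numbers 1 and 3, with circles for numbers 1 and 3, diamonds for number 2, and grey lines joining the values of a gene (libraries have no order). Hydrogenase and tubulin members are low in 15 min number 2 and in 3 h numbers 1 and 3, and near 0 in 3 h number 2.

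Tubulins build the microtubules of flagella and of the mitotic spindle. Of the 4 listed, 3 fell without number 2, against 9.73% of all tested genes, and the median over the 4 was -1.58, or -0.64 with all libraries, where none passed. Cre03.g190950 read 471 and 412 CPM at 15 min and 163 and 128 CPM at 3 h in numbers 1 and 3, against 133 and 365 CPM in number 2. Its log2 fold change was -1.61 ± 0.26 (edgeR adjusted p = 0.000196). Cre04.g216850 changed by -1.66 ± 0.27 and Cre12.g542250 by -1.56 ± 0.26. The fourth, Cre12.g549550, went from 203 and 144 CPM to 87.9 and 56.4 CPM, a log2 fold change of -1.27 ± 0.42 that missed the threshold at an adjusted p of 0.0508. DESeq2, voom and RLE factors called it too, making 4 of 4. In the control arm none of the 4 passed, with a median of -0.28, but that value leans on control 3 h number 3, which stood apart. There Cre03.g190950 read 441, 438 and 408 CPM at 15 min and 274, 317 and 454 CPM at 3 h, in the order of the numbers. All 4 were lower at 3 h than at 15 min in control numbers 1 and 2, and read highest at 3 h in number 3. The difference between arms did not pass for any of the 4, with edgeR adjusted p from 0.109 to 0.435. At 24 h Cre03.g190950 read 336, 198 and 209 CPM with nitrite and 147, 184 and 204 CPM without.

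In the peroxide and superoxide removal list, 4 of 6 tested members fell, against 9.73% of all tested genes, with a median of -0.93. None passed with all libraries, where the median was -0.31. Cre09.g417150 dropped from 333 and 311 CPM to 153 and 193 CPM in numbers 1 and 3, and rose from 161 to 304 CPM in number 2. It changed by -0.90 ± 0.20, with an edgeR adjusted p of 0.00346. Cre02.g087700, Cre02.g096150 and Cre10.g458450 changed by -1.06, -0.97 and -0.95. None of the 4 calls was kept with no scaling, and 2 to 4 were kept when 1 library was left out. The control arm called 2 of the 6, both falls, against 6.83% of all tested genes in that arm. Of 14 tested chaperones, 2 fell, Cre09.g386750 by -1.73 ± 0.25 and Cre08.g372100 by -0.79 ± 0.22, and none rose, against 9.73% and 8.1% of all tested genes. The control arm called 3 rises and 1 fall among the 14, against 7.61% and 6.83% of all tested genes in that arm. Cre09.g386750 read 102 and 91.6 CPM at 15 min and 28.5 and 29.9 CPM at 3 h, with number 2 at 24.5 and 85.0 CPM. That gene changed by -1.51 in the control arm.

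The nitrogen lists did not move as a block. Among 8 ammonium and glutamate members, entered for the enzymes that take ammonium into glutamine and glutamate, 1 rose and 3 fell, against 8.1% and 9.73% of all tested genes, with a median of -0.08. Cre13.g592200 fell from 55.8 and 58.9 CPM to 11.7 and 11.1 CPM, while number 2 went from 13 to 68.4 CPM. On the log2 scale it changed by -2.33 ± 0.27 (edgeR adjusted p = 7.06e-06), the largest among called members of the lists after that of Cre03.g165700. Cre05.g232150 fell from 912 and 755 CPM to 312 and 355 CPM, with number 2 at 313 and 810 CPM, a change of -1.32 ± 0.24. At 24 h this gene stood at 2520, 2100 and 1940 CPM, above every nitrite library of 15 min and 3 h, and at 492, 494 and 742 CPM in the control arm. Cre09.g388800 changed by -1.05 ± 0.21. Cre12.g530600 rose from 10.4 and 13 CPM to 28.4 and 25.2 CPM, with number 2 at 27.6 and 12.3 CPM, a change of 1.19 ± 0.19. The same 4 genes passed in the control arm in the same directions, at -1.86, -0.76, -1.20 and 0.69 in the order named.

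Of 7 identifiers for nitrate and nitrite uptake and reduction, 3 had too few reads to test, and 1 of the other 4 rose, against 8.1% of all tested genes. Cre09.g410800 went from 0.894 and 1.07 CPM to 2.57 and 2.22 CPM, from 19 and 42 reads in all, with number 2 at 2.73 and 0.574 CPM. The fitted log2 change was 1.27 ± 0.43 with an edgeR adjusted p of 0.0418, and the call was lost when any 1 of the 4 libraries was left out, in DESeq2 and with no scaling. Cre09.g410900 had 2 and 11 reads and changed by 2.43 ± 1.03 (adjusted p = 0.104). Cre03.g177700 changed by 0.54 and Cre01.g012050 by -0.37, and neither passed. Cre03.g177700 did pass in a fit of only the 2 groups compared, at 0.56 with an adjusted p of 0.0371. In the control arm Cre09.g410800 rose by 1.52 and Cre09.g410900 by 2.41, and both passed. The median of the 4 was 0.90 with nitrite and 1.01 in the control arm. The difference between arms passed for no member (lowest edgeR adjusted p 0.592).

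The nitric oxide and truncated hemoglobin list, entered for proteins tied to nitric oxide formation and binding, gave 1 rise among 3 genes, against 8.1% of all tested genes. Cre14.g615350 rose from 12.3 and 8.15 CPM to 40.8 and 39.1 CPM, while number 2 went from 40.8 to 9.86 CPM. The log2 fold change was 1.97 ± 0.37 with an edgeR adjusted p of 0.0017. By 24 h its 3 nitrite libraries read 5.38, 3.75 and 3.78 CPM, and those of the control arm 17.4, 16.7 and 4.5 CPM. In the control arm Cre14.g615350 rose by 1.58, and the difference of 0.39 did not pass (adjusted p = 0.835). Cre14.g615400 changed by -0.08 ± 0.21 and Cre01.g007950 by -0.42 ± 0.24 on the log2 scale, and neither passed.

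Alternative oxidases pass electrons from ubiquinol straight to oxygen in mitochondria. Of the 2 listed, 1 fell, against 9.73% of all tested genes. Cre09.g395950 was at 155 and 131 CPM at 15 min and 54.9 and 64.6 CPM at 3 h, with number 2 at 52.6 and 120 CPM. It changed by -1.26 ± 0.22 (edgeR adjusted p = 0.000356) with nitrite and by -0.06 in the control arm. The control libraries, in the order of the numbers, read 89.7, 104 and 95.9 CPM at 15 min and 71.3, 88.6 and 120 CPM at 3 h. Control numbers 1 and 2 were thus lower at 3 h, and only number 3, whose 3 h library stood apart, was higher. The difference between arms, -1.21, gave an adjusted p of 0.0809. The other member, Cre03.g169550, changed by -0.33 with nitrite and did not pass, but fell by 1.79 in the control arm (edgeR adjusted p = 0.0123). Its difference between arms was 1.46 and did not pass (adjusted p = 0.495). The 2 glyoxylate cycle genes, which serve growth on acetate, did not pass, with a median of -0.31.

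Among lists of photosynthesis, single members rose. They were 1 of 3 for Rubisco and activase, 1 of 2 flavodiiron genes and 1 of 5 for carbon concentration, against 8.1% of all tested genes. Cre04.g229300 of the Rubisco and activase list rose from 687 and 576 CPM to 1270 and 1430 CPM, with number 2 at 1190 and 475 CPM. The change was 1.10 ± 0.24 (edgeR adjusted p = 0.00274), and the call was lost without 15 min number 3. In the control arm Cre04.g229300 rose by 1.23, and the difference between arms, -0.13, did not pass. The other 2 members did not pass. Cre12.g531900 of the flavodiiron proteins, which pass electrons to oxygen, rose from 2.01 and 2.13 CPM to 7.29 and 6.42 CPM, with number 2 at 5.79 and 1.91 CPM. Its change was 1.72 ± 0.28, and 1.68 in the control arm. The other flavodiiron gene, Cre16.g691800, changed by -0.12. In the carbon concentration list 5 of 10 could be tested and 1 passed, Cre04.g223100 at 1 ± 0.35 (adjusted p = 0.0488), a call lost in DESeq2, in voom, with no scaling, with the replicate block, with only the 2 groups compared and without 15 min number 1, 15 min number 3 or 3 h number 1. Without 3 h number 1 the change was 0.05. Cre04.g223100 rose by 1.75 in the control arm, and the difference between arms, -0.75, did not pass. Only 1 of 5 photoprotection genes could be tested, and it did not pass.

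The tables also name mitochondrial mRNAs, of which 4 of 8 could be tested. None passed. The log2 fold changes without number 2 were 0.49 ± 0.73 for cob, 0.13 ± 0.37 for nad4, 0.58 ± 1.44 for nad5 and 0.21 ± 0.63 for rtl. Levels of nad4 were 173 and 156 CPM at 15 min and 176 and 186 CPM at 3 h in numbers 1 and 3, and 202 and 184 CPM in number 2. The 3 libraries of each time overlapped.

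**Figure D4:**
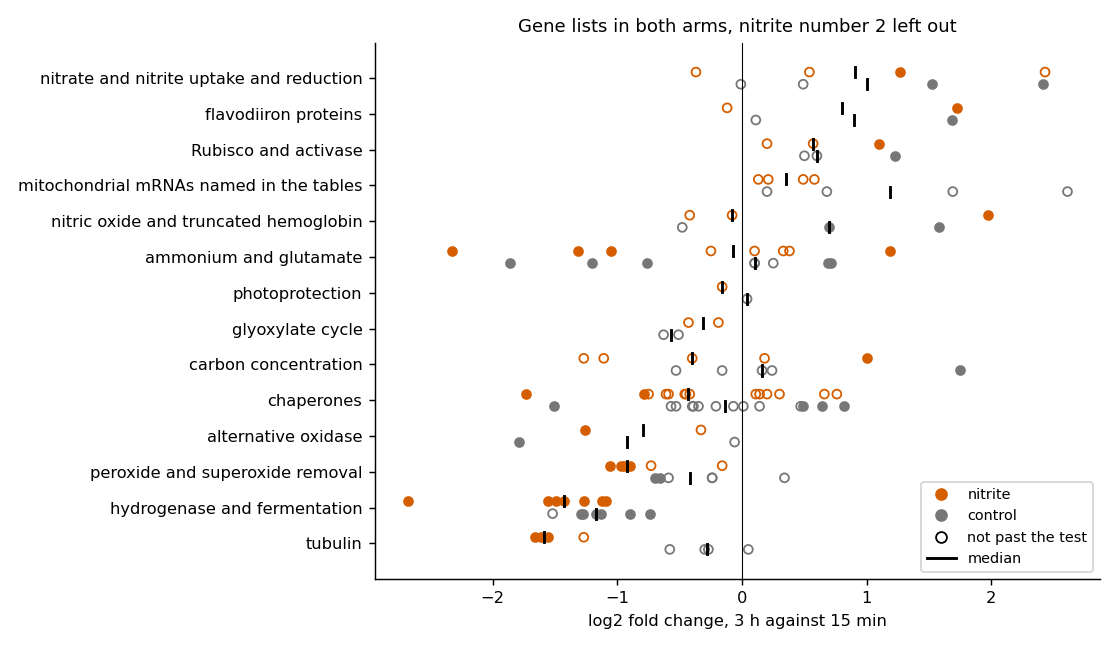
Each point is the log2 fold change of 1 tested list member from 15 min to 3 h, with nitrite in orange (number 2 left out) and control in grey, filled where the adjusted p is under 0.05, and bars at the median. The hydrogenase medians are -1.43 with nitrite and -1.17 in the control arm, and the tubulin medians -1.58 and -0.28. The control tubulin values include 3 h number 3, which read highest of the control 3 h libraries for every tubulin.

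The largest changes named by rule were in genes of unknown name. Cre16.g663900 (chromosome 16, 2916388 to 2919687, genome release 5.5) rose from 0.671 and 0.485 CPM to 10.4 and 5.43 CPM, with number 2 at 5.91 and 0.861 CPM. That is a log2 fold change of 3.76 ± 0.43 (edgeR adjusted p = 3.9e-06). Cre03.g199535 (chromosome 3, 8435901 to 8438728) rose from 1.01 and 1.07 CPM to 18.4 and 8.89 CPM, with number 2 at 10.2 and 1.05 CPM, a change of 3.71 ± 0.38. Both were again low at 24 h with nitrite, at 0.472 to 1.26 CPM and 0.157 to 0.682 CPM, and in the control arm, at 0.523 to 1.5 CPM and 0.131 to 0.409 CPM. They rose by 2.82 and 3.05 in the control arm.

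Cre09.g396650 (chromosome 9, 1728553 to 1739846) fell from 6.93 and 8.44 CPM to 0.536 and 0.617 CPM, with number 2 at 1.25 and 7.94 CPM, a change of -3.71 ± 0.41. Cre03.g199050 (chromosome 3, 8311694 to 8320773) fell from 7.04 and 4.66 CPM to 0.536 and 0.494 CPM, with number 2 at 0.568 and 5.74 CPM, a change of -3.46 ± 0.44. Both fell without nitrite too, with control log2 fold changes of -2.28 for Cre09.g396650 and -1.78 for Cre03.g199050. Cre03.g199050 had no reads in any nitrite library of 24 h, and 0.131, 0 and 0 CPM in those of the control arm. The gene with the lowest p, chosen after its values were seen, was Cre24.g755997, on a sequence not placed on a chromosome. It fell from 273 and 222 CPM to 21.9 and 33.3 CPM, with number 2 at 19.2 and 196 CPM, a change of -3.17 ± 0.25 (edgeR adjusted p = 4.14e-08). At 24 h Cre24.g755997 read 0 to 0.179 CPM with nitrite and 0 to 0.392 CPM in the control arm, where it had changed by -1.18 from 15 min to 3 h.

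Some genes that fell lie side by side. Along the chromosomes, 12.7% of genes that fell had a next tested neighbour that also fell, against 9.73% of all tested genes, and 11% of genes that rose had one that rose, against 8.1%. The 2 longest runs, chosen after their values were seen, each held 7 tested genes that fell, and no other run exceeded 4. One lies on chromosome 3 from 9088780 to 9129525, from Cre03.g211073 to Cre03.g211745, and covers 40.7 kb with 7 of 7 annotated genes tested. Its log2 fold changes were -1.17 to -0.86. The other lies on chromosome 5 from 3029411 to 3069927, from Cre05.g238600 to Cre05.g238935, with 7 of 9 annotated genes tested and changes of -2 to -0.74. Number 2 moved the opposite way in all 7 genes of each run. In the control arm the changes were -0.78 to 0.14 in the first run, with 2 falls called, and -0.82 to -0.03 in the second, with none called. Falls made up 6.83% of all tested genes in that arm. The difference between arms passed for no gene of either run. At most 0.406% of the reads in these libraries were ambiguous between genes.

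**Figure D5:**
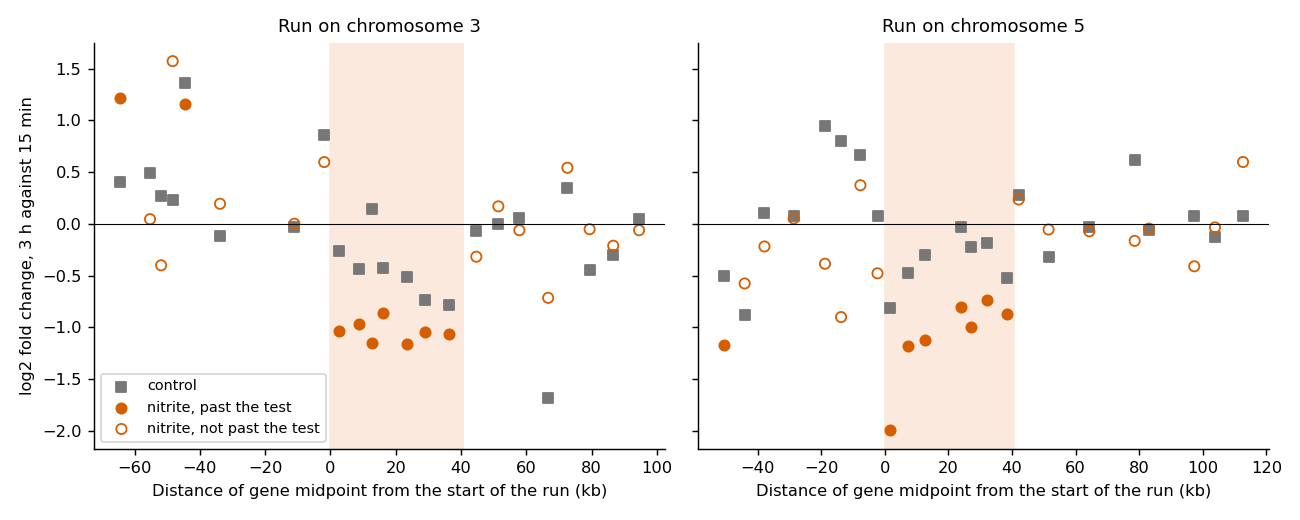
The log2 fold change from 15 min to 3 h is plotted against the distance of each tested gene's midpoint from the start of the run, in kb, for the shaded runs on chromosomes 3 and 5 and 8 genes on either side. Circles are nitrite without number 2, filled past the test, and squares are control. Nitrite values inside the runs lie at -1.17 to -0.86 and at -2 to -0.74, while the nearest tested neighbours lie at 0.60 and -0.32 for the first and at -0.48 and 0.23 for the second.

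To ask which changes were particular to nitrite, the same interval was taken in the control arm, which shares no library with the nitrite arm. Both arms were tested in the same fit with a shared estimate of spread, so their calls are not independent. Of the 13714 genes, 1980 (14.4%) passed there, with 1044 (7.61%) rising and 936 (6.83%) falling, in the fit without nitrite number 2. With all 18 libraries in the fit, 171 (1.26%) passed, 118 of them rises (0.87%) and 53 falls (0.391%). The control libraries were the same in both fits. Genes that rose in both arms numbered 497, which is 44.7% of the nitrite rises and 47.6% of the control rises. Genes that fell in both numbered 543, or 40.7% of the nitrite falls and 58% of the control falls. No nitrite rise was a control fall, and 3 nitrite falls were control rises. Leaving out control 3 h number 3 as well, the shared counts were 417 and 523. Among the 1111 nitrite rises 94.2% were higher at 3 h in the control arm too, against 50.9% of all tested genes, and their median control change was 0.67. Among the 1335 falls 89.2% were lower, with a median of -0.50.

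The change itself differed between arms in 7 genes (0.051%), all without number 2, of which 1 (0.00729%) was higher and 6 (0.0438%) were lower with nitrite. With all libraries 0 of 13564 genes passed in edgeR, and 814, or 6%, had an unadjusted p under 0.05. DESeq2 called 3 and voom 0. Cre03.g199090 rose from 1.01 and 1.26 CPM to 6.86 and 7.29 CPM with nitrite, with number 2 at 4.77 and 1.91 CPM, while the control arm read 2.42 to 4.01 CPM and then 3.46 to 3.88 CPM. The difference was 2.30 ± 0.38 (edgeR adjusted p = 0.00994). Cre03.g199090 lies on chromosome 3 from 8308908 to 8311403, near Cre03.g199050, which fell. Cre02.g095087 fell from 101 and 57.7 CPM to 15.5 and 12.5 CPM, with number 2 at 15.6 and 69.2 CPM, against a control change of -0.20, a difference of -2.30 ± 0.34. Cre02.g090050 fell from 35.4 and 19.6 CPM to 7.40 and 6.54 CPM, with number 2 at 5.23 and 16.1 CPM, against a control change of 0.11, a difference of -2.09 ± 0.39 (adjusted p = 0.0482). With no scaling the difference passed for none of the 3. With 1 library left out, the adjusted p ran from 0.00556 to 0.247 for Cre03.g199090, from 0.00041 to 0.092 for Cre02.g095087 and from 0.00652 to 0.7 for Cre02.g090050, in each case highest without nitrite 15 min number 1. For Cre02.g090050 it was also 0.0528 with RLE factors and 0.0627 without control 3 h number 3. Counts of such genes ranged from 1 to 93 when 1 library was left out, and reached 93 without control 3 h number 1.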

How the data were processed

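The 18 deposited tables hold whole-number counts of reads per gene, made by the authors and not normalised. The submitters' processing notes name TopHat2 2.0.13 and HTSeq, while no source used here gives their options, strand setting or build. Each table has 17766 features. Summary lines for reads in no gene were left out, which were 1.19% to 1.47% of reads outside genes and 0.166% to 0.406% ambiguous in the 6 nitrite libraries. Coordinates come from the RefSeq table of assembly release v5.5, where 17738 of 17741 nuclear identifiers matched.

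Features were filtered with filterByExpr (minimum count 10), scaled by TMM and tested with edgeR 4.0.16 in R 4.3.3 (quasi-likelihood, robust, Benjamini-Hochberg, threshold 0.05). One fit held 18 libraries with a mean per group, the other the 16 left without nitrite number 2 at 15 min and 3 h. CPM used the factors of the first fit. DESeq2 1.42.0 and limma 3.58.1 served as alternatives, and the code was tested on simulated counts. Named genes were the 2 largest rises and falls whose libraries did not overlap (mean log2 CPM at least 1), tested members of the nitrate, nitric oxide and mitochondrial lists, up to 6 called members of other lists, and the 2 largest differences between arms each way. Members, lists and the left-out libraries were chosen with earlier results of these data known. The design text gives 3 flasks an arm as triplicates, and intervals cover these cultures only.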

Additional observations from a re-analysis of the deposited data

Results flagged for a closer look

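The change from 15 min to 3 h differed between the nitrite and the control arm in 7 genes when nitrite number 2 was left out, by a test of the difference itself (edgeR). It was higher with nitrite in Cre03.g199090, by 2.3 on the log2 scale. It was lower in Cre02.g095087 (-2.3), Cre02.g090050 (-2.09), Cre24.g755997 (-1.99), Cre10.g443050 (-1.75), Cre12.g487200 (-1.52) and Cre07.g340050 (-1.18). The adjusted p ran from 0.0018 for Cre10.g443050 to 0.0482 for Cre02.g090050, Cre07.g340050 and Cre12.g487200. With no scaling beyond library totals none of the 7 passed. With all libraries none passed either, where the lowest adjusted p of any gene was 0.107. Cre10.g443050 read 127 and 123 CPM at 15 min and 31.4 and 21.2 CPM at 3 h in numbers 1 and 3, and 24.2 and 146 CPM in number 2. The cause of the difference was not tested.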

How the results depend on the processing

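With all libraries the nitrite arm had 0 calls under every alternative run except leaving out both number 2 libraries (2446), and leaving out any 1 library gave 0 to 0. Without number 2 the count of 2446 became 422 with no scaling beyond library totals (127 rises and 295 falls, 415 of them among the 2446), and that setting moved the median of all genes to -0.11. It was 4080 with only the 2 groups compared. RLE factors, no filter, DESeq2, voom and control 3 h number 3 left out (added after seeing the data) gave 2463, 2385, 2028, 2517 and 2865. Leaving out 1 library gave 823 to 1248, with the lone library of a time assumed to vary like the other groups. For the difference between arms, 0 with all libraries became 3 in DESeq2, 7 without nitrite number 2, and 0 to 4 with 1 library left out. The 7 without number 2 became 4 with RLE factors, 0 with no scaling, 30 with no filter, 47 in DESeq2, 12 in voom, 12 without control 3 h number 3, and 1 to 93 with 1 library left out. Without a library the values were 38 for nitrite 15 min number 3, 2 for nitrite 3 h number 1, and 1 for nitrite 15 min number 1 or 3 h number 3. The cause of these shifts was not tested.

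The labels do not say that a replicate number pairs samples. Deviations of same-numbered nitrite libraries of 15 min and 3 h correlated at -0.47, -0.77 and -0.39, but number 2 moved opposite to the others at both times, so these values do not show whether the numbers pair the samples. A fit with the replicate number as a block gave 0 calls with all libraries, 2767 without number 2, of which 2400 were among the 2446, and for the difference between arms 0 and 54 (3 higher and 51 lower).

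Of 42 named genes 33 were called without number 2, and 14 lost the call in at least 1 setting, 11 of them when 1 library was left out. Changes that did not pass turned sign when 1 library was left out, with ranges of -0.36 to 0.26 for Cre14.g615400, -0.25 to 1.17 for nad5 and -0.65 to 1.2 for rtl. At 7666924 to 8469882 reads a library, genes near 1 CPM rest on few reads. Of the listed members, 4 of 7 could be tested for nitrate, 5 of 10 for carbon concentration, 4 of 8 for mitochondrial mRNAs and 1 of 5 for photoprotection.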

Other observations

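Genes that fell were measured at higher levels than genes that rose. Their median log2 CPM was 4.1, against 2.33 for genes that rose and 2.71 for uncalled genes. Median gene lengths were 4908, 4253 and 4692 bases in the same order. At 24 h, in libraries outside the comparison, Cre03.g145787 of the chaperone list read 211, 202 and 192 CPM with nitrite, against 2.52 to 7.16 CPM in the 6 nitrite libraries of 15 min and 3 h. In the control arm it read 32.3, 46.3 and 65.8 CPM at 24 h, against 2.33 to 6.94 CPM at 15 min and 3 h.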
